A study of Mus musculus with 18 samples.

Results

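The acid pump of the lysosome and the proteins that work inside it were followed through 38 genes of the 24318 in the deposited gene table. The list was drawn up with earlier results of these data known, and its genes were matched by symbol. Of these, 17 encode subunits of the vacuolar proton pump (symbols beginning with Atp6), and 21 encode lysosomal hydrolases, lipid-binding proteins and membrane proteins. Counts of members set beside the shares of all genes are therefore descriptions only. All 38 were present and passed the filter on low counts. Polyadenylated RNA came from immortalized mouse embryonic fibroblasts (MEFs) that lack the 3 small Maf transcription factors (MafF-/-::MafG-/-::MafK-/-), a deletion that the control cells carry too. The mock line holds that genotype alone, and the second line also expresses T-N1G (written T-NG1 in its genotype), a fusion of Nrf1, the product of Nfe2l1, with MafG. Cells of both lines were kept for 12 h in vehicle or in MG132, which blocks the proteasome, at 0.3 µM or 1.0 µM, giving 6 groups of 3 libraries. The labels used here name neither the promoter that drives T-N1G nor whether a line is 1 clone or a pool. Whether libraries of 1 group stem from separate cultures is not stated either, and p-values then reflect only library-to-library spread, which may be technical. Mock and T-N1G are each 1 line, so an effect of T-N1G cannot be told apart from other differences between the lines.

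The vacuolar proton pump, or V-ATPase, is a rotary machine in the membranes of lysosomes and endosomes. Its V1 sector, on the cytosolic side, splits ATP, and its V0 sector, within the membrane, moves protons into the lumen. The acid activates hydrolases that take apart proteins, glycans, glycogen and lipids brought in by endocytosis and autophagy, so that the lysosome stands beside the proteasome as a main route of protein breakdown. Many of its genes carry the CLEAR element in their promoters, which is bound by TFEB and its relatives TFE3 and MITF.

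Of the 38 members, 31 had a promoter window in the RefSeq table (build GRCm38.p6, 250 bases before to 50 after the transcription start). The 250 bases before the start are printed for 5 members with such a window, chosen with the results below known. All 5 had a more upward response to MG132 in T-N1G cells at both doses. Other members with a window and large differences between the lines, such as Ctsc and Ctsa, are not printed. The 5 are the pump genes Atp6v1a (chr16:44139260-44139509, minus strand) and Atp6v0a1 (chr11:101010148-101010397, plus strand), the protease Ctsd (chr7:142387828-142388077, minus strand), and the glycosidases Gaa (chr11:119267713-119267962, plus strand) and Gla (chrX:134601006-134601255, minus strand). Each is written 5′ to 3′ on the strand of the gene. Capitals mark, on either strand, TCACGTG, the core of the CLEAR element, and TGANNNNGC. The latter is a loose pattern that takes in the core of the antioxidant response element but also matches other letters. CNC factors such as Nrf1 bind that element with small Maf proteins.
Atp6v1a: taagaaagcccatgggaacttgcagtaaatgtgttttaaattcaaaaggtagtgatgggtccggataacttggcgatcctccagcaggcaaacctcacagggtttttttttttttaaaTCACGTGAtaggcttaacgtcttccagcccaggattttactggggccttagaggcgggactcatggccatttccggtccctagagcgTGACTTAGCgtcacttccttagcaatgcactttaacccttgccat
Atp6v0a1: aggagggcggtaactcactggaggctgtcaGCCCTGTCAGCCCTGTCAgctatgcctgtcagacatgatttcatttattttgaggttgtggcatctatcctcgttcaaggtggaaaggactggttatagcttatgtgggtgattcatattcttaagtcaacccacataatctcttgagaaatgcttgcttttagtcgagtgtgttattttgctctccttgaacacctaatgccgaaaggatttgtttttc
Ctsd: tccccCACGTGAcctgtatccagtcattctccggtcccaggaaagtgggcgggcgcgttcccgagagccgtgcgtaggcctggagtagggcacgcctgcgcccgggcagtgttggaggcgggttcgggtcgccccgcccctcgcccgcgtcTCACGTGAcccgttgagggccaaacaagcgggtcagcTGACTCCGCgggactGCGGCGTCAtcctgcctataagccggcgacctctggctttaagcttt
Gaa: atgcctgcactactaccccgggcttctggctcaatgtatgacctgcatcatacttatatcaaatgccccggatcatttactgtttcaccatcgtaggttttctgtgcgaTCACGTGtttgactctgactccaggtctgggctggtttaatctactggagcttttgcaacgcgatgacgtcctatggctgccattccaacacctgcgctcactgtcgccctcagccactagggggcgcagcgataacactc
Gla: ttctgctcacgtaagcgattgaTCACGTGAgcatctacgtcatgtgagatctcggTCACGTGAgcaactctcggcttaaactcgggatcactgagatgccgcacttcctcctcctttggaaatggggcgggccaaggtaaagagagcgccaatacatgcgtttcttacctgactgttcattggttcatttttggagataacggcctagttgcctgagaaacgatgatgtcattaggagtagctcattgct

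TCACGTG was found at -132 from the start in Atp6v1a, at -141 in Gaa, and at both -228 and -195 in Gla. The Ctsd stretch holds it at -99 and, on the other strand, at -245. TGANNNNGC occurred once in Atp6v1a (-45), and as a tandem copy on the other strand in Atp6v0a1 (-220 and -211). Ctsd holds it at -62 and, on the other strand, at -47. Among the 31 members with a window, 11 (35.5%) held TCACGTG, against 4.29% of the 27025 genes with windows of the same length: 4 of the 12 pump genes (Atp6v0b, Atp6v0d1, Atp6v0e and Atp6v1a) and 7 of the 19 lysosomal genes (Ctsa, Ctsd, Gla, Gaa, Glb1, Lamp1 and Mcoln1). Its inner 6 letters, CACGTG, the E box, lie inside every TCACGTG and were found in 12 members (38.7%) and in 8.09% of all genes. TGANNNNGC was found in 17 members (54.8%) and in 45.0% of all genes. The members were chosen as lysosomal genes, many of which carry the CLEAR element, so the higher share of TCACGTG is no result of these libraries. A match of letters is a description of the window and shows no binding.

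The 18 libraries held 18164380 to 21293709 fragments assigned to genes. Levels are given as CPM (fragments of a gene scaled to the library total) after TMM scaling, which suit comparisons of 1 gene between libraries. Nfe2l1 stood at 273 to 393 CPM in the mock libraries and at 1022 to 21501 CPM in the T-N1G libraries, and Mafg at 0.276 to 1.32 CPM against 142 to 4238 CPM, so both parts of the fusion were read in the libraries labelled T-N1G, at levels that were higher under MG132. The libraries of the 1.0 µM groups spread more widely than the others, with a median SD of 0.16 (mock) and 0.19 (T-N1G) on the log2 scale against 0.056 to 0.081 in the other 4 groups. Of 10 fibroblast markers, 8 or 9 reached 1 FPKM in each library, with summed FPKM of 3202 to 3511 in mock vehicle and 1802 to 2147 in T-N1G cells at 1.0 µM. Between those groups Vim, Col1a1 and Col1a2 were lower (Vim at 1552 to 1815 and 245 to 650 FPKM), Fn1 was higher (220 to 255 and 694 to 980 FPKM), and the ranges of Thy1 overlapped. The 10 macrophage and leukocyte markers summed to 4.31 to 12.2 FPKM, mostly through Cd14 (2.28 to 7.71 FPKM) and Cd68 (1.40 to 4.42 FPKM). Csf1r reached 1.73 FPKM in T-N1G cells at 1.0 µM, and Tyrobp was at 0. The 5 endothelial markers summed to 1.23 ± 0.085 FPKM (mean ± SD, n = 3) in mock vehicle and 14.0 ± 2.5 at 1.0 µM, mostly through Kdr, and to 1.13 ± 0.20 and 6.35 ± 1.3 with T-N1G. For the 5 epithelial markers, led by Krt8 at 1.0 µM, the sums were 0.322 ± 0.083 and 7.30 ± 2.7 FPKM in mock, and 0.726 ± 0.22 and 3.06 ± 0.69 in T-N1G cells. The part of these marker differences in the results below was not tested, and in RNA of whole cultures a change in the make-up of the cells and a change within each cell cannot be told apart.

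Levels of different genes are compared here per length, as FPKM (fragments scaled to transcript length and library total). In mock cells under vehicle the most abundant members were Cd63, a tetraspanin of late endosomes, at 385 ± 13 FPKM (mean ± SD, n = 3), the membrane glycoprotein Lamp1 at 300.3 ± 8.2 FPKM, and Psap, the precursor of the saposins that present lipids to hydrolases, at 277 ± 4.4 FPKM. Atp6v0c, the proton-carrying ring subunit, led the pump at 258 ± 11 FPKM. The least abundant was the protease Ctsc at 1.90 ± 0.057 FPKM, followed by the glycosidase Gla at 7.18 ± 0.32 FPKM. In T-N1G cells the order changed under MG132: the aspartic protease Ctsd, ranked 5 of 38 in mock vehicle at 160.4 ± 1.8 FPKM, ranked 1 at 0.3 µM with 695 ± 4.2 FPKM and at 1.0 µM with 682 ± 92 FPKM. Summed over the 17 pump genes, FPKM in mock cells was 1175 ± 41 under vehicle, 1346 ± 0.63 at 0.3 µM and 1371 ± 107 at 1.0 µM. In T-N1G cells the pump summed to 1146 ± 29, 1587 ± 60 and 1606 ± 29 FPKM. The 21 lysosomal genes summed to 1877 ± 28, 2350.1 ± 34 and 2403 ± 135 FPKM in mock and 2121 ± 61, 3141 ± 94 and 2932 ± 110 FPKM in T-N1G cells. Ctsd, at 204 ± 12 FPKM in T-N1G vehicle, and Gaa, at 57.4 ± 2.7 there and 209 ± 32 FPKM at 1.0 µM, are part of the last sums, which follow the abundant genes and not the median gene.

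**Figure D1:**
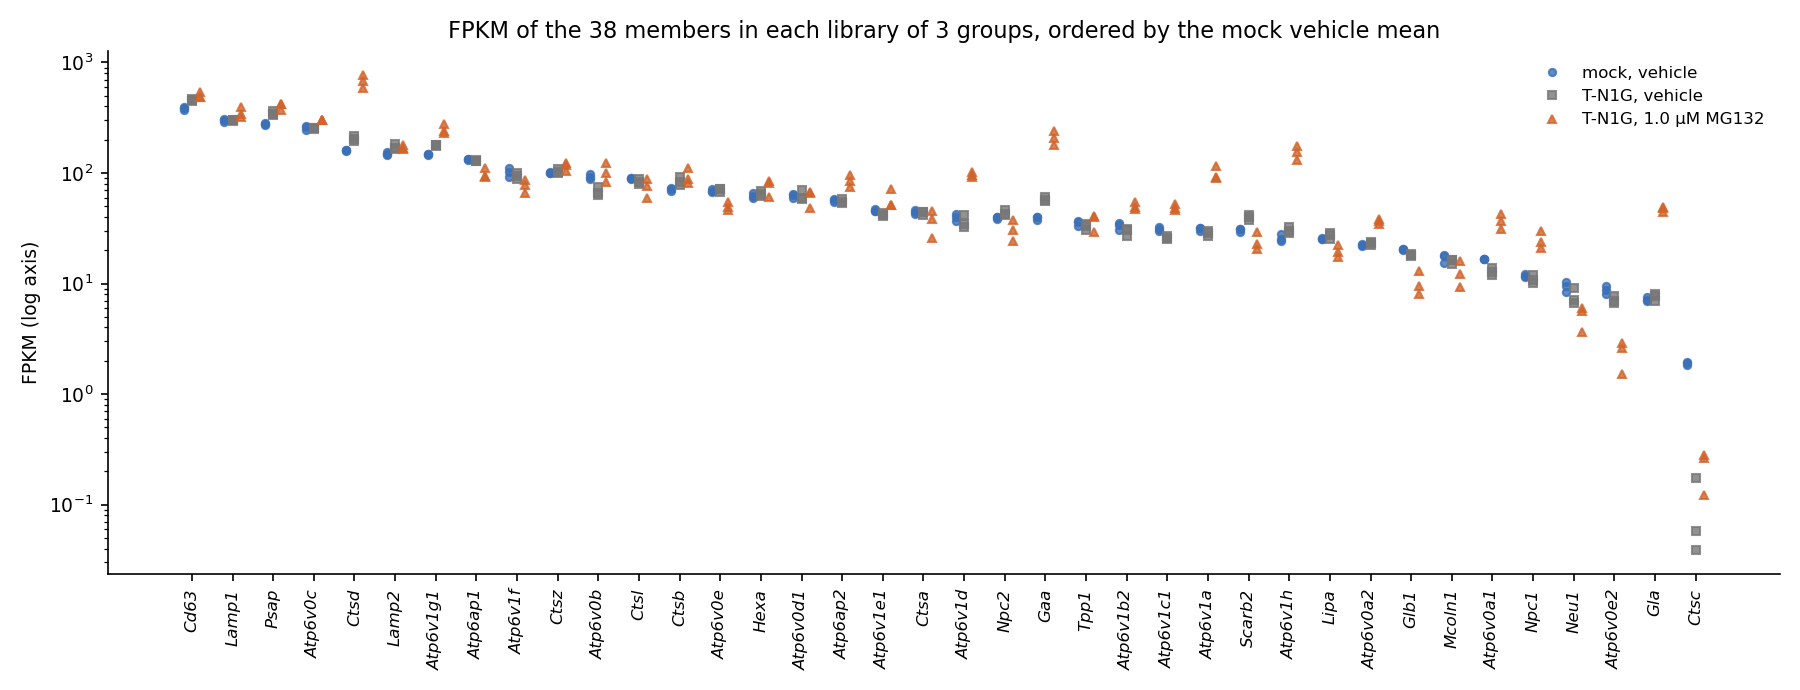
FPKM of each member (log axis) in every library of 3 groups, ordered by the mock vehicle mean; circles are mock vehicle, squares T-N1G vehicle and triangles T-N1G cells at 1.0 µM MG132. Ctsd, Gaa, Atp6v1h and Gla stand well above their vehicle levels in the triangles, and Ctsc lies at 1.90 FPKM in mock vehicle and close to 0 in the T-N1G libraries shown (mean 0.0904 FPKM under vehicle).

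Without inhibitor, 7 members were called higher and 2 lower in T-N1G than in mock cells, where 8.43% of all 13258 genes tested were called higher and 7.72% lower (edgeR quasi-likelihood test, Benjamini-Hochberg adjusted p under 0.05, the rule behind every call here). For the pump this was 1 gene in each direction and a median log2 fold change of -0.12, and for the lysosomal genes 6 higher and 1 lower with a median of 0.050. In the fit with the replicate number as a block, Atp6v0a1 (adjusted p = 0.049) and Atp6v0b (adjusted p = 0.032) were called lower as well, which makes 4 lower. The 7 higher calls became 2 without T-N1G vehicle library 1, 3 without mock vehicle library 1 or 2, and 4 without mock vehicle library 3. The 2 lower calls became 1 without mock vehicle library 2 or 3 or T-N1G vehicle library 1 or 2. Of the 9 calls 3 were kept whichever of the 18 libraries was left out, and in a fit of only these groups 9 members were lower.

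In mock cells 0.3 µM MG132 brought 17 members up and 5 down, against 25.0% and 28.1% of all genes. At 1.0 µM the split was 15 up and 10 down, with 32.4% and 37.4% of all genes called. The pump was divided at both doses, with 6 up and 4 down at 0.3 µM and 5 up and 5 down at 1.0 µM, while the lysosomal genes gave 11 up and 1 down, then 10 up and 5 down. In the fit with the replicate block Atp6v1f (adjusted p = 0.014), Ctsz (0.035) and Cd63 (0.035) were called up and Atp6v0a2 (0.043) down at 0.3 µM as well. DESeq2 called 8 pump genes up and 3 down at 0.3 µM, and at 1.0 µM 19 members up and 7 down (8 and 4 in the pump, 11 and 3 among the lysosomal genes). The median log2 fold change at 1.0 µM was 0.076 over the pump, which became -0.016 with library size as the only scaling, and 0.25 over the lysosomal genes. Lysosomal genes here are the members only, and other lysosomal enzymes mostly fell at 1.0 µM, as given below.

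In T-N1G cells the same treatment raised 22 members at 0.3 µM and lowered 0, while 29.1% of all genes were called up and 30.3% down. That 0 was also 0 at an unadjusted p under 0.05 in edgeR and with DESeq2, as was each count of 0 members given below unless stated. These were 13 of the 17 pump genes and 9 of the 21 lysosomal genes, with median log2 fold changes of 0.49 and 0.24. With the replicate block Ctsz was called up as well (adjusted p = 0.046). At 1.0 µM 19 members were up and 10 down, against 37.5% and 38.9% of all genes. The pump kept its balance upward, at 12 up and 4 down (median 0.55), and the lysosomal genes gave 7 up and 6 down (median 0.10). For the lysosomal genes the split turned to 5 up and 8 down with library size as the only scaling (median -0.038), under which the median of all genes moved by -0.14, and to 9 up and 5 down with DESeq2.

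Comparing the lines at each dose, T-N1G cells had 15 members higher and 3 lower at 0.3 µM (25.0% and 23.5% of all genes), 9 of the 15 in the pump, where 0 were lower. At an unadjusted p under 0.05 edgeR had 1 pump gene lower, and DESeq2 called 0. At 1.0 µM 14 members were higher and 8 lower (30.7% and 31.3% of all genes), with 8 and 3 in the pump and 6 and 5 among the lysosomal genes. For the lysosomal genes DESeq2 and library size as the only scaling each gave 6 higher and 7 lower, as did the replicate block, in which Ctsz (adjusted p = 0.047) and Cd63 (adjusted p = 0.036) were called lower. The 8 lower calls became 16 without mock 1.0 µM library 1.

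The interaction asks whether the response to MG132 differed between the lines, and is positive where the change was the more upward in T-N1G cells. In those cells the RNA of both parts of the fusion rose with dose too. Nfe2l1 had means of 1102, 4637 and 17010 CPM under vehicle, 0.3 µM and 1.0 µM, and Mafg 159, 814 and 3290 CPM. A changed response to MG132 therefore cannot be told apart from a higher level of the fusion. At 0.3 µM 11 members had a positive and 1 a negative interaction, against 14.2% and 11.0% of all genes. At 1.0 µM 15 were positive and 6 negative, against 22.9% and 22.1%. The pump held 7 positive and 0 negative at 0.3 µM, and 9 positive and 1 negative at 1.0 µM, with medians of 0.35 and 0.32. Lysosomal genes gave 4 and 1 (4 and 2 with DESeq2), then 6 and 5, with medians of 0.057 and -0.087. The lysosomal split at 1.0 µM was 5 positive and 6 negative with library size as the only scaling and 6 of each with DESeq2. The pump median at that dose became 0.14 without T-N1G 1.0 µM library 1 and 0.19 without mock 1.0 µM library 2. Both doses gave a positive interaction for 6 pump genes (Atp6v0a1, Atp6v0a2, Atp6v1a, Atp6v1b2, Atp6v1e1 and Atp6v1h) and 4 lysosomal genes (Ctsd, Gla, Gaa and Psap), and a negative one for Npc2. Some of these calls, such as those of Atp6v1e1, were lost with 1 library left out, as given below. The interactions at both doses use the same vehicle libraries, so their agreement is partly built in. The share of all genes called at both doses was not counted. The difference between the 2 lists was not tested, since genes of a list are not replicates.

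**Figure D2:**
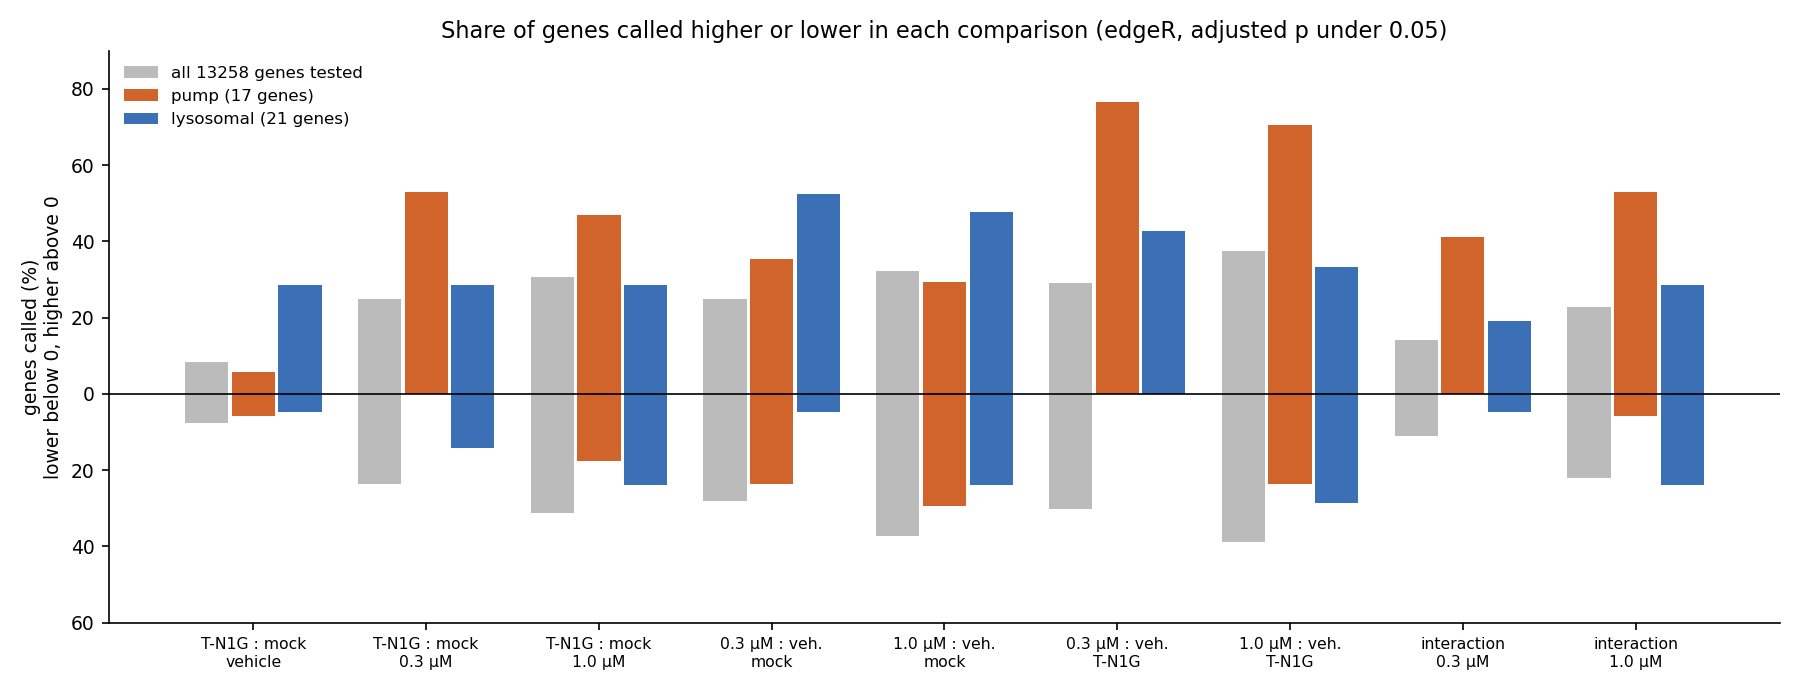
Share of genes called higher (above 0) and lower (below 0) in each of the 9 comparisons, in percent, for all 13258 genes tested (grey), the 17 pump genes (orange) and the 21 lysosomal genes (blue). In T-N1G cells at 0.3 µM the pump bar stands at 13 of 17 genes upward with none downward, against 29.1% upward for all genes.

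In the V1 sector the 8 genes mostly rose in T-N1G cells, 7 of them at 0.3 µM, and at 1.0 µM 7 rose and 1 fell. Of all genes 29.1% rose and 30.3% fell there at 0.3 µM, and 37.5% and 38.9% at 1.0 µM. In mock cells 4 of the 8 rose and 0 fell at each dose, against 25.0% and 28.1% of all genes, then 32.4% and 37.4%. The median over the sector, relative to the mock vehicle mean, lay at 0.21 to 0.28 on the log2 scale in the mock libraries at 0.3 µM and 0.20 to 0.30 at 1.0 µM, and at 0.60 to 0.64 and 0.63 to 0.72 in the T-N1G libraries, which do not overlap with the mock values. Under vehicle it was -0.062 to 0.042 in mock and -0.20 to -0.073 in T-N1G libraries.

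Atp6v1h (chr1:5073253-5152630 in mm9, the build of the deposited positions), the H subunit that couples ATP splitting to rotation, showed the largest rise of the pump. Mock libraries held 45.8, 52.0 and 46.8 CPM under vehicle, 83.3, 78.4 and 77.8 at 0.3 µM and 84.7, 85.1 and 99.2 at 1.0 µM. T-N1G libraries held 53.1, 60.6 and 55.7 CPM under vehicle, 189, 205 and 197 at 0.3 µM and 316, 238 and 282 at 1.0 µM. Every treated T-N1G library lay above every mock library, and in both lines the treated libraries cleared those of vehicle. The log2 fold change at 1.0 µM was 0.90 ± 0.09 (SE, adjusted p = 1.7e-07) in mock and 2.30 ± 0.10 (SE, adjusted p = 6.7e-13) in T-N1G cells, and the interaction was 1.41 ± 0.13 (SE, adjusted p = 1.7e-07). The values after ± are SEs in the same way for every fold change below.

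Atp6v1a (chr16:44085516-44139132), the catalytic A subunit, whose promoter is printed above, had 118, 124 and 124 CPM under vehicle, 142, 143 and 134 at 0.3 µM and 146, 155 and 145 at 1.0 µM in mock libraries. With T-N1G it had 105, 114 and 117 CPM under vehicle, 247, 260.4 and 251 at 0.3 µM and 439.9, 345 and 353 at 1.0 µM. The doses did not overlap in either line, and the steps between them were small in mock libraries and large in T-N1G libraries. Its change at 1.0 µM was 0.28 ± 0.08 (adjusted p = 0.0043) in mock and 1.76 ± 0.08 (adjusted p = 2.1e-12) in T-N1G cells, with an interaction of 1.48 ± 0.11 (adjusted p = 1.6e-08).

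Atp6v1d, the D subunit of the central stalk, rose in both lines. Its mock libraries gave 47.0, 51.1 and 54.0 CPM under vehicle, 85.3, 86.2 and 85.7 at 0.3 µM and 77.6, 101 and 87.2 at 1.0 µM. In T-N1G libraries there were 41.4, 43.9 and 52.2 CPM under vehicle, 88.4, 98.4 and 103 at 0.3 µM and 117, 126 and 114 at 1.0 µM. No treated library reached down to the vehicle libraries of its line, and at 1.0 µM all T-N1G libraries lay above the mock ones. The change at 1.0 µM was 0.80 ± 0.10 (adjusted p = 9.2e-07) in mock and 1.38 ± 0.10 (adjusted p = 5.2e-10) in T-N1G cells, and the interaction 0.57 ± 0.14 (adjusted p = 0.0023). Atp6v1c1, the C subunit that holds V1 and V0 together, rose in both lines as well: mock libraries had 60.1, 64.9 and 62.2 CPM under vehicle, 87.3, 87.9 and 86.0 at 0.3 µM and 95.0, 112 and 105 at 1.0 µM. With T-N1G the values were 50.4, 51.2 and 53.3 CPM under vehicle, 77.9, 85.4 and 96.3 at 0.3 µM and 89.8, 101 and 93.4 at 1.0 µM. Vehicle and treated libraries of Atp6v1c1 did not overlap in either line, and at 1.0 µM the lines did. It rose by 0.74 ± 0.08 (adjusted p = 1.9e-07) and 0.87 ± 0.08 (adjusted p = 1.3e-08) at 1.0 µM, with an interaction of 0.14 ± 0.11 (adjusted p = 0.34), and was lower in T-N1G cells under vehicle, -0.27 ± 0.08 (adjusted p = 0.024).

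Atp6v1g1, a G subunit of the outer stalk, was the pump gene called higher in T-N1G cells under vehicle. It had 136, 139 and 139 CPM under vehicle, 162, 161 and 164 at 0.3 µM and 162, 134 and 152 at 1.0 µM in mock libraries. The T-N1G libraries gave 167, 164 and 168 CPM under vehicle, 227, 224 and 218 at 0.3 µM and 251, 207 and 219.5 at 1.0 µM. At each dose all 3 T-N1G libraries were above the 3 mock libraries. The difference under vehicle was 0.27 ± 0.07 (adjusted p = 0.018) and that at 1.0 µM 0.59 ± 0.07 (adjusted p = 1.7e-06). Atp6v1b2, the B subunit beside the catalytic one, rose by 0.72 ± 0.09 (adjusted p = 5.0e-07) at 1.0 µM in T-N1G cells, and its log2 fold change in mock cells was 0.018 ± 0.09 (adjusted p = 0.87), with an interaction of 0.70 ± 0.12 (adjusted p = 1.4e-04). Atp6v1e1, of the outer stalk, rose by 0.43 ± 0.09 (adjusted p = 4.7e-04) in T-N1G cells at that dose, and its log2 fold change in mock cells was 0.076 ± 0.09 (adjusted p = 0.48).

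The F subunit gene Atp6v1f, also of the central stalk, was the V1 member that fell. Mock libraries held 41.5, 49.9 and 46.0 CPM under vehicle, 52.2, 57.5 and 51.7 at 0.3 µM and 43.5, 54.9 and 45.5 at 1.0 µM. T-N1G libraries read 39.8, 44.7 and 42.3 CPM under vehicle, 44.1, 46.2 and 50.2 at 0.3 µM and 28.7, 37.3 and 34.3 at 1.0 µM. At 1.0 µM the 3 T-N1G libraries were the lowest of all 18. The log2 fold change there was -0.34 ± 0.11 (adjusted p = 0.0078), against 0.067 ± 0.10 (adjusted p = 0.58) in mock cells, and the interaction -0.40 ± 0.15 (adjusted p = 0.034). With 1 library left out at a time, some V1 calls were lost. The vehicle difference of Atp6v1c1 was lost without mock vehicle library 2 or 3 or T-N1G vehicle library 1 or 2 (adjusted p 0.071 to 0.11). That of Atp6v1g1 was lost without mock vehicle library 1 or T-N1G vehicle library 1 (adjusted p 0.053 to 0.062). The fall of Atp6v1f in T-N1G cells was lost without T-N1G vehicle library 2 or T-N1G 1.0 µM library 1 (adjusted p 0.051 to 0.073). The interaction at 1.0 µM was lost for Atp6v1f without mock vehicle library 1, mock 1.0 µM library 2, T-N1G vehicle library 2, or T-N1G 1.0 µM library 1 (adjusted p 0.056 to 0.066). It was lost for Atp6v1g1 without mock vehicle library 1, 2 or 3, mock 1.0 µM library 2, T-N1G vehicle library 1, 2 or 3, or T-N1G 1.0 µM library 1 (adjusted p 0.050 to 0.11). For Atp6v1e1 it was lost without any 1 of the 15 libraries other than T-N1G 0.3 µM library 1 and T-N1G 1.0 µM library 2 and 3 (adjusted p 0.050 to 0.19). The interaction of Atp6v1e1 at 0.3 µM was lost without any 1 of the 12 libraries other than mock 1.0 µM library 1, 2 and 3 and T-N1G 1.0 µM library 1, 2 and 3 (adjusted p 0.054 to 0.090).

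The membrane-bound V0 sector did not move as 1 block. In T-N1G cells 4 of its 7 genes rose and 0 fell at 0.3 µM, and at 1.0 µM 4 rose and 2 fell. In mock cells 1 rose and 4 fell at each dose, where DESeq2 called 1 up and 3 down at 0.3 µM and 3 up and 3 down at 1.0 µM. Of all genes 29.1% rose and 30.3% fell in T-N1G cells at 0.3 µM, and 37.5% and 38.9% at 1.0 µM. The shares in mock cells were 25.0% and 28.1%, then 32.4% and 37.4%. The sector's median relative to mock vehicle lay at -0.18 to -0.15 and -0.20 to -0.11 in mock libraries at 0.3 and 1.0 µM, and at 0.10 to 0.19 and -0.20 to 0.18 in T-N1G libraries, so that at 1.0 µM the lines overlapped.

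**Figure D3:**
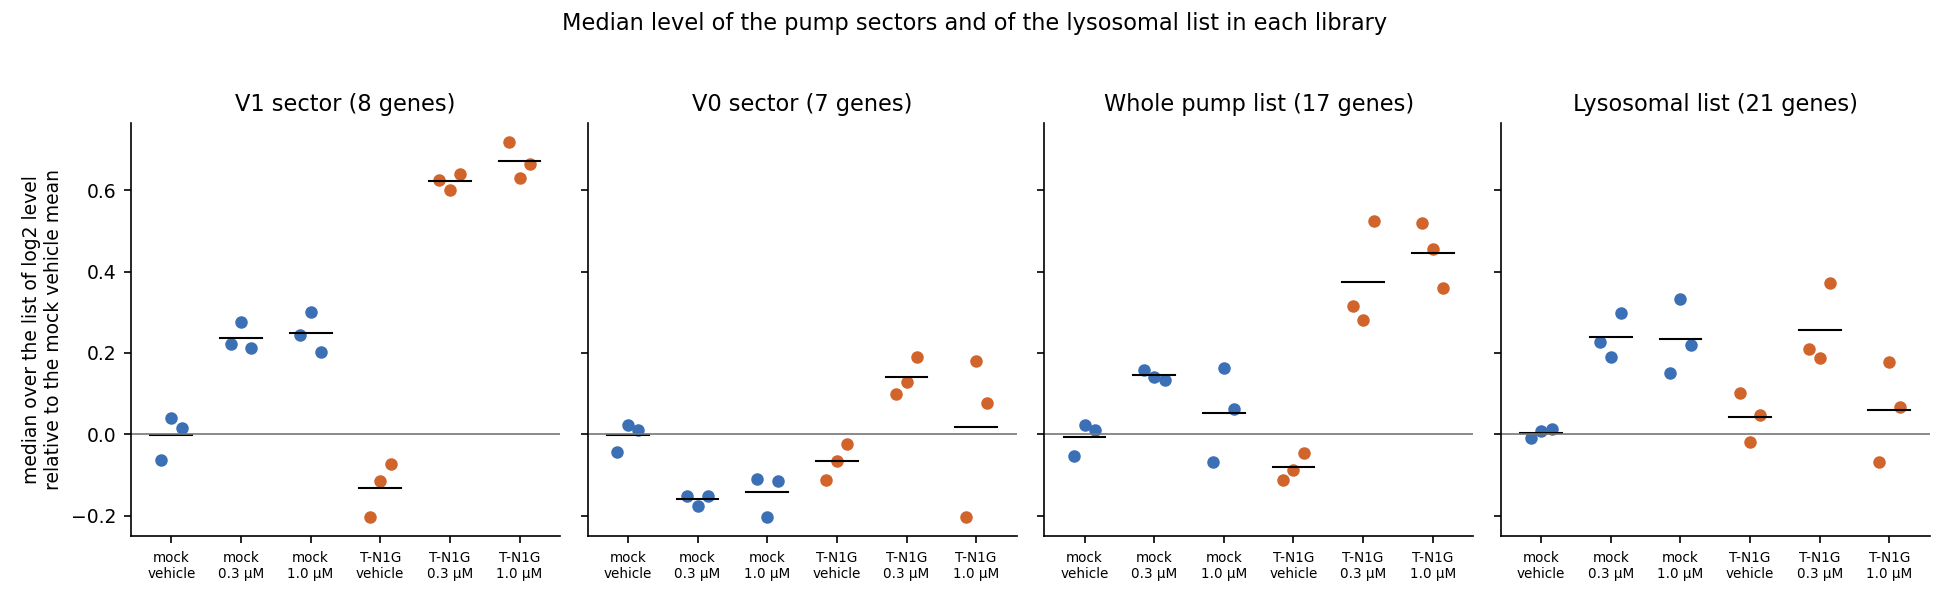
Median over the genes of each list of the log2 level relative to the mock vehicle mean, 1 point a library, for the V1 sector, the V0 sector, the whole pump list and the lysosomal list; blue is mock, orange T-N1G and bars are group means. For V1 the treated T-N1G libraries lie at 0.60 to 0.72, apart from all others, while the lysosomal list ranges from -0.069 to 0.18 in T-N1G cells at 1.0 µM, across the mock vehicle level.

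Atp6v0a1 (chr11:100870765-100925031), 1 of the a subunits through which protons pass, turned in opposite directions. Its mock libraries had 66.1, 66.5 and 65.8 CPM under vehicle, 38.7, 40.0 and 43.3 at 0.3 µM and 18.9, 31.3 and 32.7 at 1.0 µM. Those with T-N1G had 51.0, 47.5 and 54.6 CPM under vehicle, 85.6, 80.5 and 88.7 at 0.3 µM and 143, 119.6 and 166 at 1.0 µM. All treated mock libraries were below, and all treated T-N1G libraries above, every vehicle library of either line. Its log2 fold change at 1.0 µM was -1.26 ± 0.15 (adjusted p = 8.4e-07) in mock and 1.49 ± 0.15 (adjusted p = 4.5e-08) in T-N1G cells, and the interaction of 2.74 ± 0.21 (adjusted p = 1.8e-08) was the largest among the 38 members. The same held at 0.3 µM, with -0.70 ± 0.15 (adjusted p = 5.8e-04), 0.73 ± 0.14 (adjusted p = 2.7e-04) and an interaction of 1.44 ± 0.20 (adjusted p = 6.1e-05). Atp6v0a2, an a subunit used in the Golgi and endosomes, rose by 0.61 ± 0.06 (adjusted p = 3.1e-08) in T-N1G cells at 1.0 µM and fell by 0.14 ± 0.06 (adjusted p = 0.041) in mock cells.

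Atp6v0b, the c'' subunit of the proton ring, rose in both lines. Mock libraries had 73.6, 76.4 and 80.5 CPM under vehicle, 118, 122 and 124 at 0.3 µM and 106, 170.1 and 122 at 1.0 µM. T-N1G libraries had 52.0, 54.7 and 62.2 CPM under vehicle, 82.4, 90.4 and 123 at 0.3 µM and 66.6, 99.3 and 81.1 at 1.0 µM. At 1.0 µM all T-N1G libraries were below the mock libraries. The response at 1.0 µM was 0.79 ± 0.17 (adjusted p = 5.6e-04) in mock and 0.55 ± 0.17 (adjusted p = 0.0081) in T-N1G cells, and the lines differed there by -0.69 ± 0.17 (adjusted p = 0.0021). Atp6v0c, which makes up most of the ring, rose by 0.21 ± 0.06 (adjusted p = 0.0045) in T-N1G cells at 1.0 µM, and its log2 fold change in mock cells was 0.062 ± 0.06 (adjusted p = 0.37). Its gene shares the locus with the copy Atp6v0c-ps2, so its reads may have been split. Atp6v0d1, the d subunit that seats the stalk on the ring, had 88.8, 96.0 and 93.5 CPM under vehicle, 104, 98.8 and 109 at 0.3 µM and 87.0, 132 and 118 at 1.0 µM in mock libraries. Those with T-N1G had 85.8, 88.6 and 103 CPM under vehicle, 75.9, 80.4 and 95.3 at 0.3 µM and 69.1, 97.3 and 96.0 at 1.0 µM. The lines overlapped under vehicle and at 1.0 µM and separated at 0.3 µM, and at 1.0 µM the log2 difference, T-N1G against mock, was -0.36 ± 0.14 (adjusted p = 0.033).

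The small e subunits fell. Atp6v0e2 was at 15.0, 16.2 and 13.9 CPM under vehicle, 10.7, 9.84 and 10.8 at 0.3 µM and 4.68, 6.71 and 3.84 at 1.0 µM in mock libraries. In the T-N1G line they were 11.9, 13.2 and 11.3 CPM under vehicle, 11.4, 10.4 and 14.5 at 0.3 µM and 2.52, 4.79 and 4.33 at 1.0 µM. In both lines the 1.0 µM libraries lay below all others of that line, with changes of -1.57 ± 0.20 (adjusted p = 1.4e-06) in mock and -1.64 ± 0.20 (adjusted p = 8.7e-07) in T-N1G cells, and the interaction was -0.067 ± 0.28 (adjusted p = 0.87). Atp6v0e had 41.7, 43.0 and 44.4 CPM under vehicle, 39.2, 34.7 and 37.8 at 0.3 µM and 33.4, 36.7 and 29.5 at 1.0 µM in mock libraries. T-N1G libraries held 44.1, 41.9 and 44.3 CPM under vehicle, 40.3, 43.7 and 42.2 at 0.3 µM and 29.9, 32.8 and 27.7 at 1.0 µM. The 1.0 µM libraries were the lowest in T-N1G cells and overlapped with those of 0.3 µM in mock cells. Its log2 fold change at 1.0 µM was -0.38 ± 0.08 (adjusted p = 7.0e-04) in mock and -0.53 ± 0.09 (adjusted p = 1.9e-05) in T-N1G cells. Leaving out 1 library at a time removed the rise of Atp6v0b in T-N1G cells at 1.0 µM without T-N1G 1.0 µM library 2 (adjusted p 0.061). The difference of Atp6v0d1 between the lines was lost without mock 1.0 µM library 2 or 3 or T-N1G 1.0 µM library 1 (adjusted p 0.088 to 0.11). The fall of Atp6v0e2 in mock cells at 0.3 µM was lost without mock vehicle library 1 or 2 or mock 0.3 µM library 2 (adjusted p 0.067 to 0.10). That of Atp6v0e was lost without any 1 of the 13 libraries other than mock 0.3 µM library 1, mock 1.0 µM library 3, T-N1G 0.3 µM library 1 and 2, and T-N1G 1.0 µM library 2 (adjusted p 0.053 to 0.20). Atp6v0c lost its fall at that dose without any 1 of the 12 libraries other than mock 1.0 µM library 1, 2 and 3, T-N1G 0.3 µM library 1 and 2, and T-N1G 1.0 µM library 2 (adjusted p 0.052 to 0.21). The fall of Atp6v0a2 in mock cells at 1.0 µM was lost without any 1 of the 11 libraries other than mock 0.3 µM library 1, 2 and 3, mock 1.0 µM library 3, T-N1G 0.3 µM library 1 and 2, and T-N1G 1.0 µM library 2 (adjusted p 0.19 to 0.54). With library size as the only scaling the rise of Atp6v0c in T-N1G cells had an adjusted p of 0.12 at 0.3 µM and 0.38 at 1.0 µM.

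Both accessory proteins of the pump rose at 0.3 µM in T-N1G cells and parted at 1.0 µM. Atp6ap1, which helps to assemble V0, had 281, 278 and 274 CPM under vehicle, 307, 306 and 301 at 0.3 µM and 191, 237 and 200.0 at 1.0 µM in mock libraries. In T-N1G libraries there were 276, 271 and 269 CPM under vehicle, 320.5, 327 and 337 at 0.3 µM and 191, 223 and 186 at 1.0 µM. At 1.0 µM every library of either line lay below every library of the other doses, with log2 fold changes of -0.41 ± 0.08 (adjusted p = 1.5e-04) in mock and -0.44 ± 0.08 (adjusted p = 5.1e-05) in T-N1G cells. Its partner Atp6ap2, also known as the prorenin receptor, rose by 0.58 ± 0.10 (adjusted p = 3.1e-05) in T-N1G cells at that dose, where its log2 fold change in mock cells was 0.085 ± 0.10 (adjusted p = 0.45), with an interaction of 0.50 ± 0.14 (adjusted p = 0.0070).

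**Figure D4:**
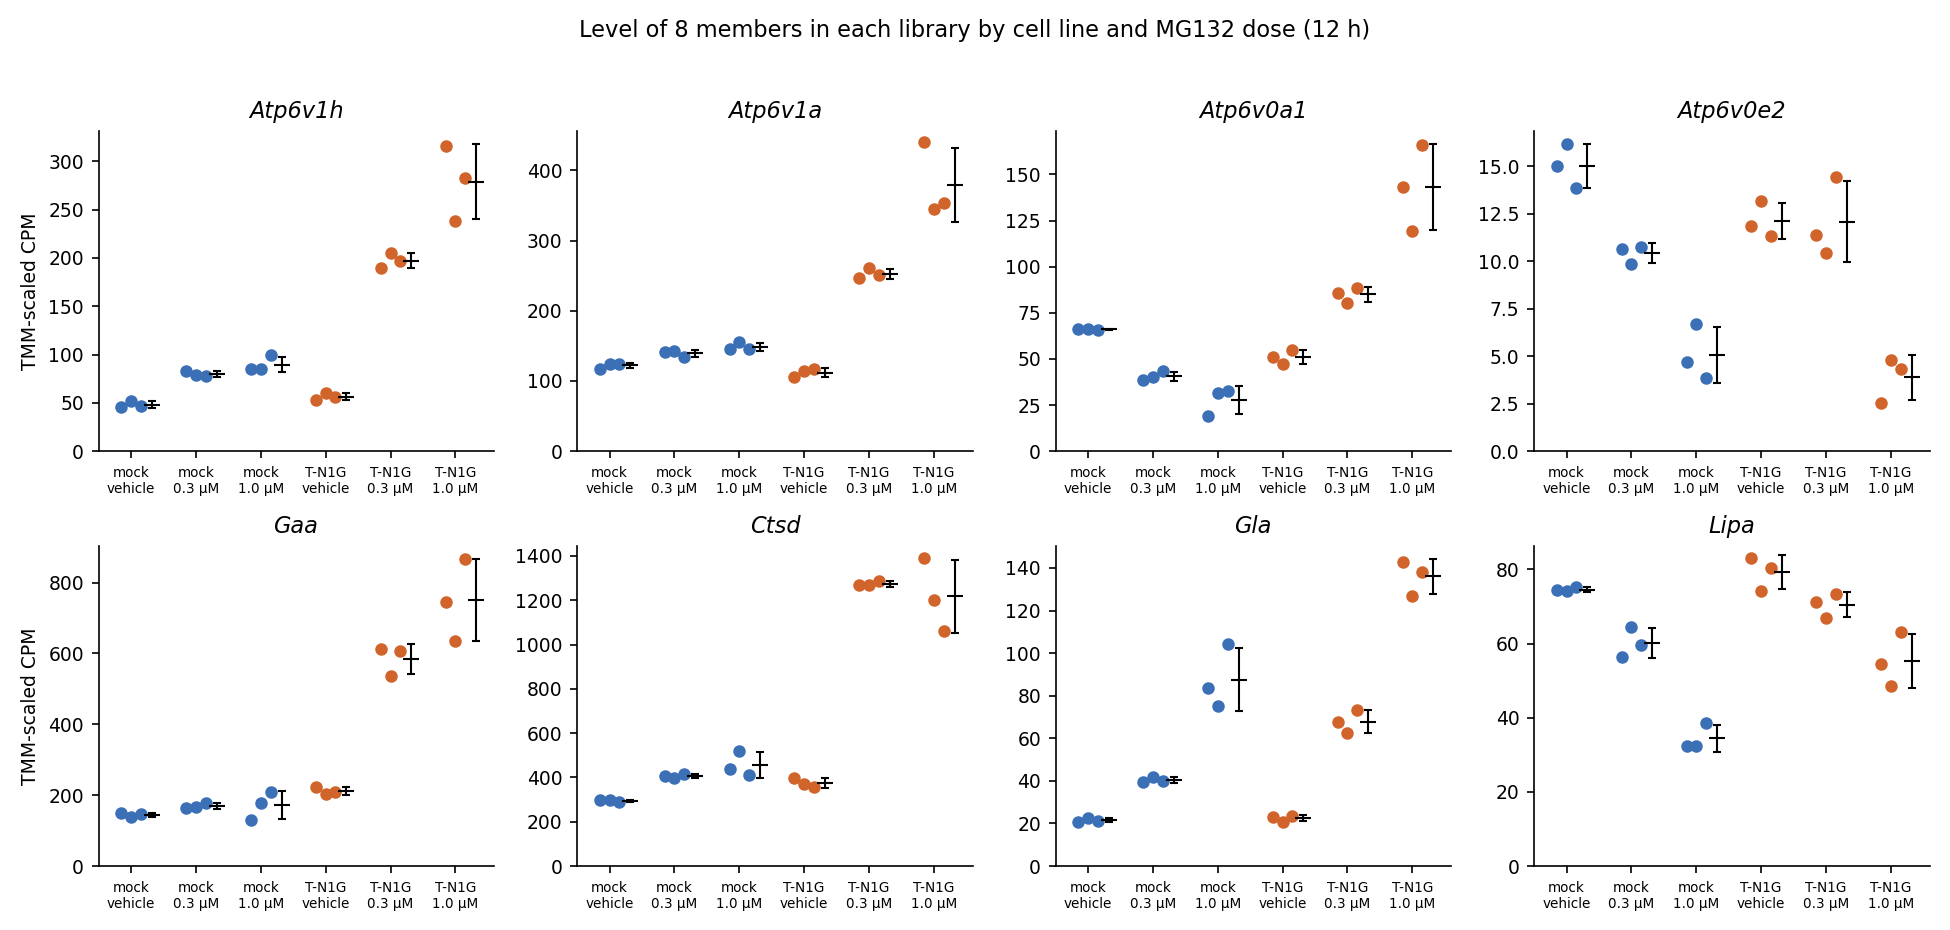
TMM-scaled CPM of 4 pump genes (upper row) and 4 lysosomal genes (lower row) in each library, with the mean and SD of 3 libraries beside the points; blue is mock and orange T-N1G. Atp6v0a1 falls with dose in mock cells to 18.9, 31.3 and 32.7 CPM and rises in T-N1G cells to 143, 119.6 and 166 CPM, while Atp6v0e2 is lowest at 1.0 µM in both lines.

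Among the 7 lysosomal proteases 4 rose and 0 fell in mock cells at each dose. Of all genes 25.0% rose and 28.1% fell there at 0.3 µM, and 32.4% and 37.4% at 1.0 µM. In T-N1G cells 2 of the 7 rose and 0 fell at each dose, against 29.1% and 30.3% of all genes, then 37.5% and 38.9%. Ctsd (cathepsin D, chr7:149561820-149573775) stood out. Mock libraries contained 300.0, 297 and 291 CPM under vehicle, 404, 398 and 417 at 0.3 µM and 439, 521 and 411 at 1.0 µM. T-N1G libraries contained 399, 372 and 355 CPM under vehicle, 1267, 1267 and 1288 at 0.3 µM and 1392, 1199 and 1063 at 1.0 µM. The lowest treated T-N1G library (1063 CPM) stood above the highest mock library (521 CPM). The change at 0.3 µM was 0.46 ± 0.09 (adjusted p = 5.1e-04) in mock and 1.76 ± 0.10 (adjusted p = 7.4e-11) in T-N1G cells, with an interaction of 1.30 ± 0.13 (adjusted p = 1.5e-06). At 1.0 µM it was 0.63 ± 0.09 (adjusted p = 1.2e-05) and 1.70 ± 0.10 (adjusted p = 2.5e-11), with an interaction of 1.07 ± 0.13 (adjusted p = 4.2e-06). Under vehicle it was already higher in T-N1G cells, 0.34 ± 0.09 (adjusted p = 0.018), a call that was lost without mock vehicle library 2 or 3 or T-N1G vehicle library 1 (adjusted p 0.053 to 0.085).

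Ctsc (cathepsin C, chr7:95426602-95459385), which activates granule proteases of immune cells, separated the lines at every dose. It had 4.56, 4.68 and 4.38 CPM under vehicle, 4.86, 5.09 and 5.32 at 0.3 µM and 5.47, 5.23 and 5.56 at 1.0 µM in mock libraries. With T-N1G the values were 0.417, 0.0920 and 0.138 CPM under vehicle, 0.297, 0.202 and 0.191 at 0.3 µM and 0.614, 0.282 and 0.650 at 1.0 µM. In fragments this was 96 to 116 a library in mock cells and 2 to 12 in T-N1G cells, so no mock library overlapped with a T-N1G library. The fitted difference was -4.36 ± 0.30 (adjusted p = 3.6e-08) under vehicle, -4.43 ± 0.30 (adjusted p = 1.5e-09) at 0.3 µM and -3.38 ± 0.27 (adjusted p = 5.6e-09) at 1.0 µM. Without T-N1G vehicle library 1 the first became -5.23. A rise within T-N1G cells at 1.0 µM, 1.23 ± 0.41 (adjusted p = 0.011), rests on these few fragments, became 2.12 without T-N1G vehicle library 1, and was lost without T-N1G vehicle library 2 or 3 or T-N1G 1.0 µM library 3 (adjusted p 0.050 to 0.080).

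Ctsa (cathepsin A), a carboxypeptidase that also protects lysosomal glycosidases, had an interaction at 1.0 µM of the opposite sign to that of Ctsd. Mock libraries read 142, 150.5 and 145 CPM under vehicle, 211, 224 and 218 at 0.3 µM and 167, 257 and 222 at 1.0 µM. The T-N1G libraries gave 147, 137 and 145 CPM under vehicle, 144, 147 and 185 at 0.3 µM and 81.3, 144 and 123 at 1.0 µM. Mock libraries of both doses were above their vehicle libraries, whereas at 1.0 µM all T-N1G libraries lay below every treated mock library. Ctsa rose in mock cells by 0.56 ± 0.17 (adjusted p = 0.0064) at 1.0 µM. In T-N1G cells its log2 fold change was -0.30 ± 0.17 (adjusted p = 0.12), and the interaction was -0.86 ± 0.24 (adjusted p = 0.0069). The log2 difference between the lines at 0.3 µM was -0.46 ± 0.17 (adjusted p = 0.031), which was lost without mock 0.3 µM library 1, 2 or 3 or T-N1G 0.3 µM library 1 or 2 (adjusted p 0.056 to 0.11). Ctsb (cathepsin B) rose by 0.50 ± 0.10 (adjusted p = 2.1e-04) in mock cells at 1.0 µM, with an interaction of -0.41 ± 0.14 (adjusted p = 0.025) that was lost without mock 1.0 µM library 3 (adjusted p 0.066). Its rise in T-N1G cells at 0.3 µM, 0.30 ± 0.10 (adjusted p = 0.013), was lost without T-N1G vehicle library 3 (adjusted p 0.053). Ctsl rose by 0.37 ± 0.12 (adjusted p = 0.013) in mock cells at 0.3 µM, Ctsz by 0.28 ± 0.07 (adjusted p = 0.0012) at 1.0 µM, and the tripeptidyl peptidase Tpp1 was called in none of the 9 comparisons, its largest log2 fold change being 0.24 ± 0.12 (adjusted p = 0.10) in T-N1G cells at 0.3 µM. Ctsa, Ctsb and Ctsz overlap other genes (Neurl2 and Pltp, Fdft1, and Nelfcd), and since the strand setting of the counting is not given, their values are uncertain to that extent.

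The glycosidases and the acid lipase moved in both directions at 1.0 µM, as did the genes tested as a whole. In mock cells 2 of the 6 rose (Hexa and Gla) and 3 fell (Neu1, Glb1 and Lipa), against 32.4% and 37.4% of all genes. In T-N1G cells 2 rose (Gla and Gaa) and the same 3 fell, against 37.5% and 38.9% of all genes. Gaa (acid alpha-glucosidase, chr11:119129280-119147012), which breaks down glycogen, differed most between the lines. Its mock libraries held 149, 138 and 148 CPM under vehicle, 165, 166 and 178 at 0.3 µM and 131, 177 and 208 at 1.0 µM. With T-N1G there were 224, 205 and 208 CPM under vehicle, 612, 536 and 607 at 0.3 µM and 746, 636 and 868 at 1.0 µM. The treated T-N1G libraries stood far above the rest, and of the mock libraries 1 at 1.0 µM (208 CPM) reached the T-N1G vehicle range. Gaa was higher in the T-N1G line under vehicle by 0.55 ± 0.13 (adjusted p = 0.0066). It rose in that line by 1.46 ± 0.13 (adjusted p = 2.8e-08) at 0.3 µM and 1.82 ± 0.13 (adjusted p = 6.0e-10) at 1.0 µM. In mock cells Gaa had log2 fold changes of 0.23 ± 0.13 (adjusted p = 0.15) and 0.25 ± 0.13 (adjusted p = 0.095). The interactions were 1.24 ± 0.18 (adjusted p = 7.1e-05) and 1.57 ± 0.18 (adjusted p = 1.8e-06).

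Gla (alpha-galactosidase A, chrX:131122707-131135544), which clears globotriaosylceramide, rose with dose in both lines. Mock libraries had 20.6, 22.4 and 21.2 CPM under vehicle, 39.3, 41.8 and 39.8 at 0.3 µM and 83.8, 75.0 and 104 at 1.0 µM. T-N1G libraries read 23.0, 20.8 and 23.7 CPM under vehicle, 67.6, 62.4 and 73.3 at 0.3 µM and 143, 127 and 138 at 1.0 µM. The 3 doses did not overlap in either line, and at both doses of MG132 the T-N1G libraries were above those of mock cells. At 1.0 µM the rise was 2.03 ± 0.10 (adjusted p = 2.6e-11) in mock and 2.60 ± 0.10 (adjusted p = 4.0e-13) in T-N1G cells, each the largest among the members in its line, and the interaction was 0.56 ± 0.14 (adjusted p = 0.0037). Hexa, the alpha subunit of beta-hexosaminidase, rose at 0.3 µM by 0.53 ± 0.13 (adjusted p = 0.0024) in mock and 0.59 ± 0.13 (adjusted p = 8.5e-04) in T-N1G cells. Its rise of 0.34 in mock cells at 1.0 µM was lost without mock 1.0 µM library 2 or 3 (adjusted p 0.055 to 0.13).

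Lipa, the acid lipase that frees cholesterol from its esters, fell less in T-N1G cells. The mock values were 74.3, 74.1 and 75.3 CPM under vehicle, 56.4, 64.4 and 59.7 at 0.3 µM and 32.4, 32.4 and 38.7 at 1.0 µM. Those with T-N1G had 83.1, 74.3 and 80.4 CPM under vehicle, 71.3, 67.0 and 73.4 at 0.3 µM and 54.5, 48.7 and 63.1 at 1.0 µM. At 1.0 µM the lines did not overlap, and within each line the 1.0 µM libraries were the lowest. Its change there was -1.11 ± 0.09 (adjusted p = 8.9e-09) in mock and -0.52 ± 0.09 (adjusted p = 5.2e-05) in T-N1G cells, with an interaction of 0.60 ± 0.13 (adjusted p = 0.0011). The difference between the lines at 0.3 µM, 0.23 ± 0.09 (adjusted p = 0.044), was lost without any 1 of the 10 libraries other than mock 0.3 µM library 2, mock 1.0 µM library 1, 2 and 3, T-N1G 0.3 µM library 2, and T-N1G 1.0 µM library 1, 2 and 3 (adjusted p 0.053 to 0.16).

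Glb1 (beta-galactosidase) read 46.4, 46.9 and 46.8 CPM under vehicle, 36.7, 41.1 and 39.9 at 0.3 µM and 21.5, 29.9 and 28.9 at 1.0 µM in mock libraries. In the T-N1G line they were 41.1, 40.0 and 41.8 CPM under vehicle, 38.2, 37.4 and 44.8 at 0.3 µM and 17.9, 28.9 and 21.1 at 1.0 µM. All 1.0 µM libraries were below all others in both lines, with log2 fold changes of -0.80 ± 0.14 (adjusted p = 4.8e-05) in mock and -0.86 ± 0.14 (adjusted p = 2.1e-05) in T-N1G cells, with an interaction of -0.054 ± 0.19 (adjusted p = 0.85). Glb1 overlaps Tmppe and is the only member with counts that were not whole, so its level is uncertain. Neu1 (sialidase), which works in a complex with Ctsa and Glb1, had 32.1, 39.4 and 36.4 CPM under vehicle, 32.4, 39.6 and 34.4 at 0.3 µM and 16.9, 26.2 and 26.9 at 1.0 µM in mock libraries. T-N1G libraries held 27.5, 25.6 and 35.0 CPM under vehicle, 31.5, 29.7 and 42.9 at 0.3 µM and 13.5, 20.9 and 22.5 at 1.0 µM. Its 1.0 µM libraries too lay below the others of their line. Its log2 fold change was -0.62 ± 0.20 (adjusted p = 0.010) in mock cells, lost without mock vehicle library 2 or mock 1.0 µM library 1 (adjusted p 0.068 to 0.10). It was -0.63 ± 0.20 (adjusted p = 0.0096) in T-N1G cells, lost without T-N1G vehicle library 3 or T-N1G 1.0 µM library 1 (adjusted p 0.066 to 0.070). The interaction was -0.0055 ± 0.28 (adjusted p = 0.99), and a p above the threshold does not show that the lines responded alike.

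Of the soluble lipid-binding proteins, Npc2, which hands cholesterol to Npc1, moved apart between the lines. Mock libraries gave 123, 129 and 128 CPM under vehicle, 171, 188 and 169.6 at 0.3 µM and 144, 150.5 and 122 at 1.0 µM. In T-N1G libraries there were 134, 136 and 149 CPM under vehicle, 119, 129 and 145 at 0.3 µM and 96.2, 117 and 76.2 at 1.0 µM. At both doses every mock library was above every T-N1G library. Npc2 rose in mock cells at 0.3 µM by 0.48 ± 0.12 (adjusted p = 0.0022) and fell by 0.54 ± 0.12 (adjusted p = 4.7e-04) in T-N1G cells at 1.0 µM. The interaction was -0.57 ± 0.17 (adjusted p = 0.016) at 0.3 µM, lost without T-N1G 0.3 µM library 1 (adjusted p 0.050), and -0.67 ± 0.17 (adjusted p = 0.0032) at 1.0 µM. Psap was higher in the T-N1G line at every dose, by 0.32 ± 0.07 (adjusted p = 0.0033) under vehicle, 0.66 ± 0.07 (adjusted p = 4.6e-07) at 0.3 µM and 0.66 ± 0.07 (adjusted p = 2.0e-07) at 1.0 µM. In mock cells its rise of 0.20 at 0.3 µM was lost without mock 0.3 µM library 1 or 3 (adjusted p 0.053 to 0.072). In T-N1G cells Psap rose by 0.53 ± 0.07 (adjusted p = 2.9e-06) at 0.3 µM. At 1.0 µM its log2 fold change was -0.16 in mock cells, lost without any 1 of the 15 libraries other than T-N1G 0.3 µM library 1 and 2 and T-N1G 1.0 µM library 2 (adjusted p 0.052 to 0.38). It was 0.17 in T-N1G cells, lost without mock 0.3 µM library 1 or 3, T-N1G vehicle library 2 or 3, or T-N1G 1.0 µM library 2 (adjusted p 0.050 to 0.10). Its interactions of 0.33 and 0.34 were lost without mock vehicle library 1 or T-N1G vehicle library 3 (adjusted p 0.050 to 0.053), and without mock vehicle library 1 or T-N1G vehicle library 2 or 3 (adjusted p 0.052 to 0.057).

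The 6 membrane proteins gave 3 rises and 0 falls at 0.3 µM in each line, and at 1.0 µM 4 rises and 1 fall in mock cells and 2 of each in T-N1G cells. Of all genes 25.0% rose and 28.1% fell in mock cells at 0.3 µM, and 32.4% and 37.4% at 1.0 µM. The shares in T-N1G cells were 29.1% and 30.3%, then 37.5% and 38.9%. Npc1, which moves cholesterol out of the lysosome, had 61.7, 63.9 and 60.6 CPM under vehicle, 99.9, 104 and 101 at 0.3 µM and 72.0, 97.9 and 110.4 at 1.0 µM in mock libraries. With T-N1G the values were 56.7, 53.7 and 62.8 CPM under vehicle, 109, 96.8 and 129.8 at 0.3 µM and 107, 121 and 154 at 1.0 µM. Treated libraries were above vehicle in both lines, and at each dose the lines overlapped. It rose at 1.0 µM by 0.59 ± 0.14 (adjusted p = 0.0013) in mock and 1.14 ± 0.14 (adjusted p = 1.1e-06) in T-N1G cells. The difference between the lines at 1.0 µM, 0.44 ± 0.14 (adjusted p = 0.011), was lost without mock 1.0 µM library 1 or T-N1G 1.0 µM library 3 (adjusted p 0.13 to 0.15). The interaction of 0.55 ± 0.20 (adjusted p = 0.034) was lost without mock vehicle library 1, 2 or 3, mock 1.0 µM library 1 or 2, T-N1G vehicle library 1 or 2, or T-N1G 1.0 µM library 3 (adjusted p 0.064 to 0.15). Npc1 overlaps 3110002H16Rik.

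Scarb2 (LIMP-2), a membrane glycoprotein of the lysosome, was highest in T-N1G cells without MG132 or at 0.3 µM and dropped at 1.0 µM. Mock libraries read 59.2, 63.2 and 62.1 CPM under vehicle, 64.2, 68.8 and 65.5 at 0.3 µM and 44.1, 56.6 and 52.5 at 1.0 µM. The T-N1G libraries gave 80.4, 75.4 and 82.8 CPM under vehicle, 71.2, 77.3 and 81.0 at 0.3 µM and 39.9, 56.8 and 44.1 at 1.0 µM. In both lines the 1.0 µM libraries were the lowest, and the lines separated under vehicle and at 0.3 µM. The difference under vehicle was 0.37 ± 0.11 (adjusted p = 0.022), lost without mock vehicle library 1, 2 or 3 or T-N1G vehicle library 1 or 3 (adjusted p 0.062 to 0.098). At 1.0 µM Scarb2 fell in T-N1G cells, with a log2 fold change of -0.76 ± 0.11 (adjusted p = 3.9e-06), with an interaction of -0.49 ± 0.15 (adjusted p = 0.013). Its fall in mock cells, -0.27 ± 0.11 (adjusted p = 0.034), was lost without any 1 of the 10 libraries other than mock 0.3 µM library 1, 2 and 3, mock 1.0 µM library 2 and 3, T-N1G 0.3 µM library 1 and 2, and T-N1G 1.0 µM library 2 (adjusted p 0.063 to 0.39). Cd63 rose by 0.50 ± 0.07 (adjusted p = 5.7e-06) in mock cells at 1.0 µM and had a log2 fold change of 0.10 ± 0.07 (adjusted p = 0.19) in T-N1G cells, with an interaction of -0.40 ± 0.10 (adjusted p = 0.0034). The vehicle difference of Cd63, 0.24 ± 0.07 (adjusted p = 0.027), was lost without mock vehicle library 1, 2 or 3 or T-N1G vehicle library 1, 2 or 3 (adjusted p 0.056 to 0.12).

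Lamp1 and Lamp2, the main glycoproteins of the lysosomal membrane, moved less. At 0.3 µM Lamp1 rose by 0.41 ± 0.09 (adjusted p = 5.6e-04) in mock and 0.48 ± 0.09 (adjusted p = 9.3e-05) in T-N1G cells. Its rise of 0.29 ± 0.09 (adjusted p = 0.0063) in mock cells at 1.0 µM had an adjusted p of 0.061 with library size as the only scaling. The rise of 0.20 ± 0.09 (adjusted p = 0.042) in T-N1G cells was lost without mock 0.3 µM library 1, 2 or 3, T-N1G vehicle library 1, 2 or 3, T-N1G 0.3 µM library 1 or 2, or T-N1G 1.0 µM library 2 (adjusted p 0.056 to 0.25). For Lamp2 the rise at 0.3 µM was 0.38 ± 0.07 (adjusted p = 1.2e-04) and 0.40 ± 0.07 (adjusted p = 4.6e-05). Its vehicle difference of 0.25 was lost without mock vehicle library 1 or 2 or T-N1G vehicle library 1 (adjusted p 0.051 to 0.092). Its rise of 0.18 in mock cells at 1.0 µM was lost without mock 1.0 µM library 3 (adjusted p 0.075). Mcoln1, a calcium channel of the lysosome, had a log2 difference between the lines of -0.46 ± 0.16 (adjusted p = 0.016) at 1.0 µM, lost without mock 1.0 µM library 3 or T-N1G 1.0 µM library 1 (adjusted p 0.062 to 0.097). It fell by 0.38 ± 0.16 (adjusted p = 0.032) in T-N1G cells, lost without mock vehicle library 2, T-N1G vehicle library 1, 2 or 3, or T-N1G 1.0 µM library 1 or 2 (adjusted p 0.050 to 0.23).

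**Figure D5:**
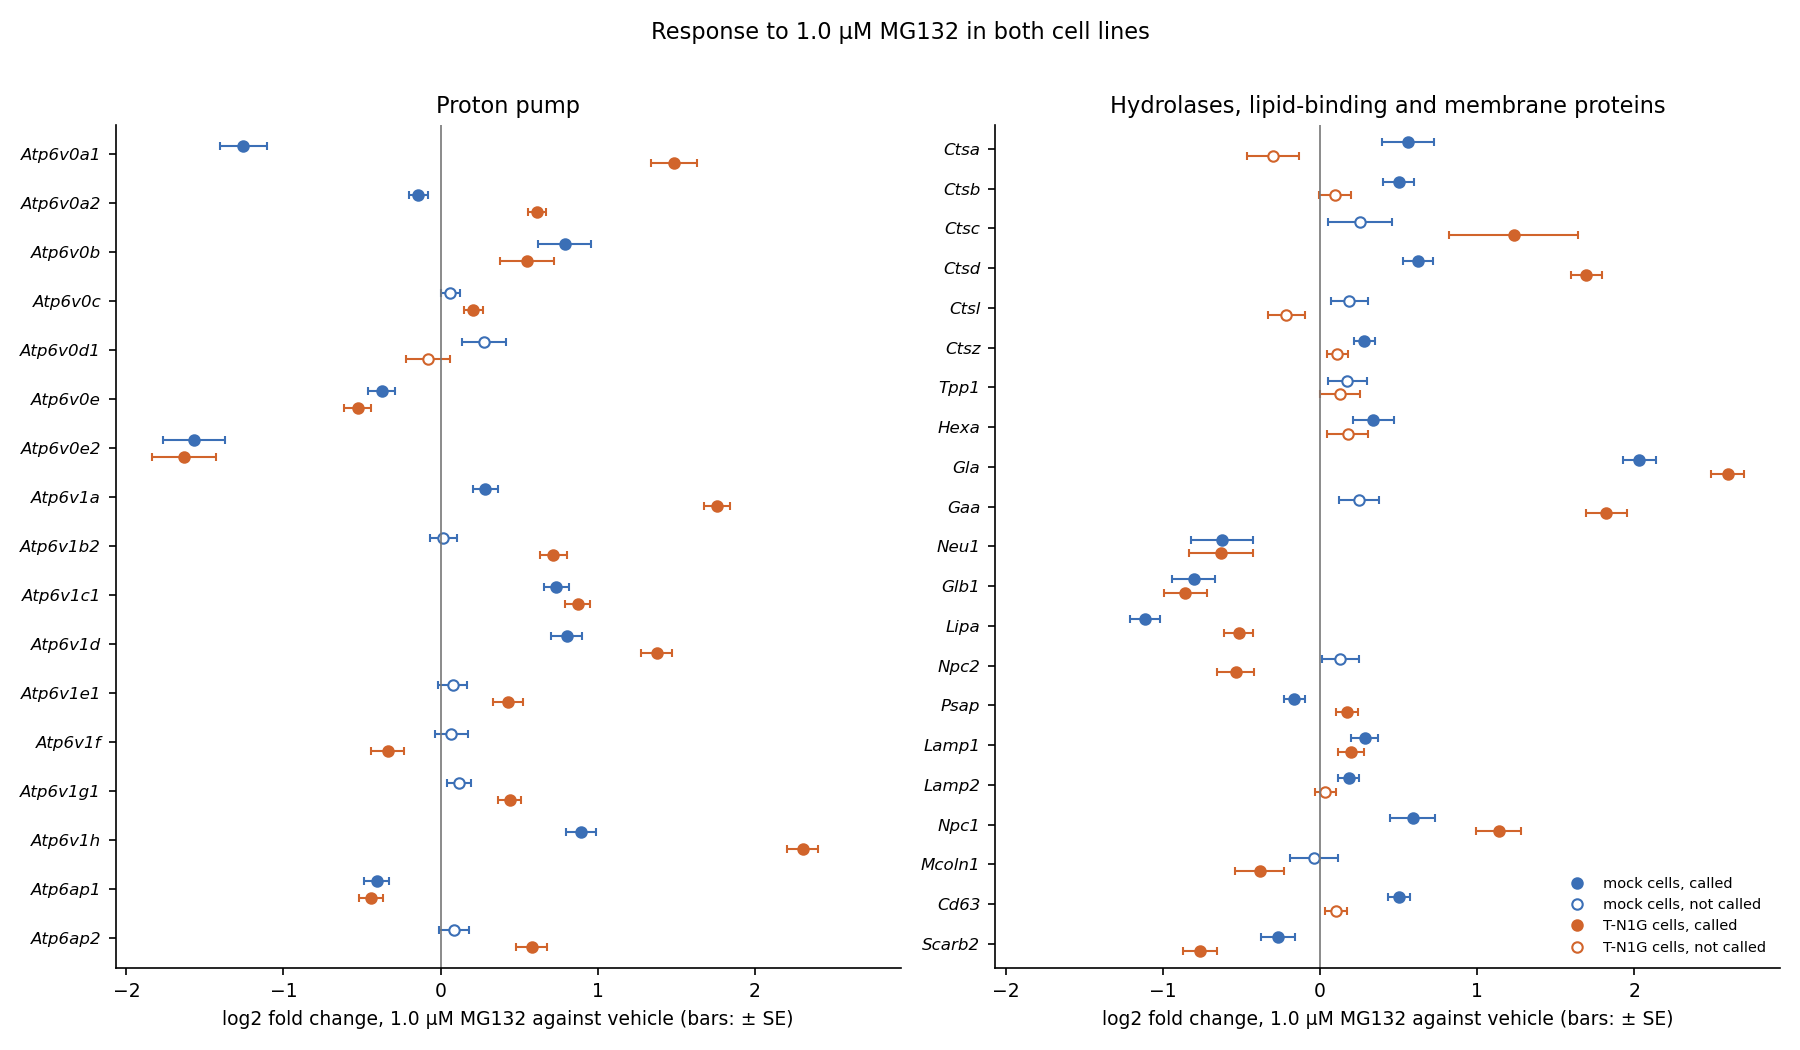
Log2 fold change at 1.0 µM MG132 against vehicle for each of the 38 members, in mock (blue) and T-N1G cells (orange), with the SE as bars; filled points are called at an adjusted p under 0.05. Atp6v0a1 lies on opposite sides of 0 in the lines (-1.26 and 1.49), while Atp6v0e2, Glb1 and Neu1 lie close together below 0.

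Beside the members, 6 further lists of the same pathway were read out, and the counts below refer to 1.0 µM. Of 30 other lysosomal enzymes 27 were tested: 2 rose and 19 fell in mock cells (median -0.46), and 1 rose and 17 fell in T-N1G cells (median -0.71), against medians of -0.042 and -0.0057 over all genes, of which 32.4% rose and 37.4% fell in mock cells and 37.5% rose and 38.9% fell in T-N1G cells. Gusb (beta-glucuronidase) had 73.7 ± 0.37 CPM (mean ± SD, n = 3) in mock vehicle and 32.0 ± 6.4 at 1.0 µM, and 80.2 ± 0.70 and 20.2 ± 6.9 CPM with T-N1G, where it fell the furthest of the list, with a log2 fold change of -1.99 ± 0.17 (adjusted p = 1.0e-08). Other large falls were those of the iduronate sulfatase Ids, -1.51 ± 0.09 (adjusted p = 2.1e-10), and the sphingomyelinase Smpd1, -1.47 ± 0.13 (adjusted p = 1.5e-08), in mock cells, and of the sulfatases Arsb, -1.51 ± 0.11 (adjusted p = 6.4e-10), and Arsa, -1.38 ± 0.21 (adjusted p = 1.2e-05), in T-N1G cells.

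Of 9 pump isoforms outside the members only 3 were tested, and edgeR called 0 of them in mock cells at 1.0 µM (0 at an unadjusted p under 0.05). Tcirg1, the a3 subunit, rose in T-N1G cells from 57.9 ± 8.5 CPM under vehicle to 112 ± 6.7 CPM, 0.96 ± 0.09 (adjusted p = 3.6e-08), and had 63.1 ± 2.4 and 65.3 ± 1.8 CPM in mock cells, with an interaction of 0.91 ± 0.13 (adjusted p = 2.4e-05). Among 6 assembly factors Ccdc115 rose by 1.30 ± 0.10 (adjusted p = 1.5e-09) with T-N1G, where its interaction was 1.06 ± 0.14 (adjusted p = 1.0e-05), while Vma21 fell in both lines, with log2 fold changes of -0.47 ± 0.07 (adjusted p = 1.7e-05) and -0.35 ± 0.07 (adjusted p = 2.7e-04). The transcription factors that bind the CLEAR element differed among themselves. Tfeb had 9.97 ± 0.37 CPM in mock vehicle and 6.96 ± 0.94 at 1.0 µM, against 10.5 ± 0.87 and 3.80 ± 0.62 CPM with T-N1G. It fell in both lines, with log2 fold changes of -0.52 ± 0.13 (adjusted p = 0.0018) and -1.47 ± 0.14 (adjusted p = 2.2e-08), and the interaction was -0.95 ± 0.19 (adjusted p = 5.8e-04). Tfe3 had 90.5 ± 1.9, 117 ± 3.3 and 85.4 ± 6.3 CPM in mock cells and 106 ± 2.9, 187 ± 12 and 143 ± 13 CPM in T-N1G cells, where it rose by 0.82 ± 0.07 (adjusted p = 3.1e-08) at 0.3 µM and 0.43 ± 0.07 (adjusted p = 3.2e-05) at 1.0 µM, with an interaction of 0.52 ± 0.10 (adjusted p = 5.7e-04) at the higher dose. Mitf, at 6.41 ± 0.30 CPM in mock vehicle and 4.27 ± 0.93 CPM in T-N1G vehicle, was not called for MG132 in either line. Under vehicle it was called lower in T-N1G cells, -0.58 (adjusted p = 0.018). That call was lost without mock vehicle library 1 or 3 or T-N1G vehicle library 1 or 2 (adjusted p 0.058 to 0.091). Tfe3 was called higher in T-N1G cells under vehicle, 0.23 (adjusted p = 0.042), lost without any vehicle library of either line (adjusted p 0.061 to 0.13), among others. These are levels of RNA and say nothing of where the proteins were in the cell.

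Read against the printed letters, the 11 members with TCACGTG in their window had 4 positive and 1 negative interactions at 1.0 µM, and the 20 members without it 6 and 4. In T-N1G cells at 1.0 µM 6 of the 11 rose and 3 fell, and 7 of the 20 rose and 7 fell. In mock cells at that dose 6 rose and 2 fell with TCACGTG, and 5 rose and 7 fell without it. The 17 members with TGANNNNGC had 6 positive and 2 negative interactions, and the 14 without it 4 and 3. Of all genes, 37.5% rose and 38.9% fell in T-N1G cells at that dose, 32.4% and 37.4% did in mock cells, and 22.9% and 22.1% had a positive and a negative interaction. These are counts of few genes, and no test was made of the differences.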

How the data were processed

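RNA was extracted as total RNA with RNeasy columns and made into strand-specific poly(A) libraries with a SureSelect kit, per the labels' protocols. The submitters' processing notes name mouse build mm9 and, as tools, Cuffdiff 2.1.1, TopHat2 2.0.8b and bcl2fastq 2.16.0.10. The annotation, filters and strand setting of the counting are not given. The deposited Cuffdiff table gives expected counts of fragments per gene and library (98.2% to 98.5% whole within 1e-06), which were rounded to whole numbers for the tests. It also gives FPKM, which the authors' program had scaled between libraries. Library names in the table were read as T-N1G or mock and as 0.3 or 1.0 µM, and replicates were numbered in the table's order, neither of which the table states.

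Counts were scaled by TMM, filtered with filterByExpr by group and fitted in edgeR 4.0.16 (R 4.3.3) as 6 group means over 18 libraries, with robust quasi-likelihood tests of 9 comparisons, 13258 genes and 12 residual degrees of freedom. The SE of a fold change is its size divided by the square root of F. P-values were adjusted by Benjamini and Hochberg over all genes, and those under 0.05 were called. The script was tested on simulated data. Alternatives were DESeq2 1.42.0, library size as the only scaling, no filter, only the groups compared, a replicate block, leaving out each library, and, chosen after seeing the data, leaving out the number 3 libraries of both 1.0 µM groups. The 2 genes that were unprocessed in some library were left out, and 20 genes had failed FPKM, none of them a member.

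Per-library values are given for up to 3 called members of largest fold change in each direction and comparison, within the pump and within the lysosomal genes, and for the largest interactions at 1.0 µM. From the 6 pathway lists (90 genes, 80 tested), up to 3 called genes in each direction at 1.0 µM in each line and in the interaction could be named if their mean was at least 1 CPM, with Tfeb, Tfe3 and Mitf. One gene that this rule names is not reported here. Members and lists were chosen with earlier results of these data known. Same-numbered libraries deviated together, with every correlation over 0.1, in T-N1G against mock under vehicle (0.16 to 0.30) and at 1.0 µM (0.57 to 0.76), and in the response to 0.3 µM in mock (0.22 to 0.28) and T-N1G cells (0.47 to 0.63), but not in the others (lowest -0.011, 0.095 and -0.17). No 2 libraries of a group agreed within sampling noise (lowest chi-square per degree of freedom 2.82). Promoter windows and letters are from RefSeq (GRCm38.p6), and were joined to the genes by symbol only. Atp6v1b2 overlaps Slc18a1, and Atp6v0a1 and Scarb2 overlap Mir6928 and Mir6415.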

Additional observations from a re-analysis of the deposited data

Results flagged for a closer look

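The results below are those in which the response to MG132 differed between the lines by a test of the difference itself. The test was the interaction term of edgeR's quasi-likelihood fit, called at an adjusted p under 0.05. Each value is the log2 fold change in T-N1G cells minus that in mock cells. Levels of the fusion's RNA were also higher under MG132, which cannot be told apart from a changed response.

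At 0.3 µM the interaction of the pump genes was 1.44 for Atp6v0a1, 0.63 for Atp6v0a2, 0.35 for Atp6v0c, 0.98 for Atp6v1a, 0.66 for Atp6v1b2, 0.38 for Atp6v1e1 and 1.07 for Atp6v1h. For lysosomal members at that dose it was 1.30 for Ctsd, 0.68 for Gla, 1.24 for Gaa, -0.57 for Npc2 and 0.33 for Psap.

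At 1.0 µM the positive interactions of the pump were 2.74 for Atp6v0a1, 0.75 for Atp6v0a2, 1.48 for Atp6v1a, 0.70 for Atp6v1b2, 0.57 for Atp6v1d, 0.35 for Atp6v1e1, 0.32 for Atp6v1g1, 1.41 for Atp6v1h and 0.50 for Atp6ap2, and Atp6v1f had -0.40. Lysosomal members with a more upward response in T-N1G cells had 1.07 for Ctsd, 0.56 for Gla, 1.57 for Gaa, 0.60 for Lipa, 0.34 for Psap and 0.55 for Npc1. Those with a more downward response had -0.86 for Ctsa, -0.41 for Ctsb, -0.67 for Npc2, -0.40 for Cd63 and -0.49 for Scarb2.

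From the pathway lists only the genes named by the rule above are given, up to 3 in each list and direction. A pathway gene not listed here may therefore also have been called. Among those named, the positive interactions at 1.0 µM were 2.35 for Abca2, 0.35 for Acp2, 1.06 for Ccdc115, 0.39 for Gga1, 0.45 for Ids, 0.46 for Lamtor3, 1.02 for M6pr, 1.09 for Rptor, 0.40 for Sidt2, 0.96 for Slc11a2, 0.91 for Tcirg1, 0.52 for Tfe3 and 0.66 for Vps11. The negative ones were -0.92 for Arsa, -0.65 for Arsb, -0.81 for Ctns, -0.66 for Gnptab, -0.79 for Gusb, -0.80 for Laptm4b, -0.41 for Ostm1, -0.54 for Rragc and -0.95 for Tfeb. Of these, Acp2 and Gga1 were no longer called when 1 of several libraries was left out, and Gusb was lost (-0.66, adjusted p = 0.056) without the number 3 libraries of both 1.0 µM groups.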

How the results depend on the processing

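Over the 9 comparisons 180 calls of members were made. DESeq2 kept 172 of them, library size as the only scaling 168, no filter 164, leaving out the number 3 libraries of both 1.0 µM groups 173, a fit of only the groups compared 165 of the 179 it tested, and the replicate block 180, with 15 added. The 14 calls lost in the fit of only the groups compared were all at 1.0 µM. Among them were the line differences of Atp6v0d1, Npc1 and Mcoln1 (edgeR adjusted p 0.089 to 0.13). The interactions of Atp6v1e1, Atp6v1f, Atp6v1g1, Ctsb and Npc1 were lost there too (adjusted p 0.055 to 0.092). Leaving out each of the 18 libraries in turn, 141 calls were kept every time and 39 were lost at least once, and no value that was called changed direction under the alternatives run.

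With library size as the only scaling, the median log2 fold change at 0.3 µM in mock cells was 0.10 over the pump and 0.17 over the lysosomal genes, at 1.0 µM in mock cells -0.016 and 0.16, and at 1.0 µM in T-N1G cells 0.41 and -0.038. Without a filter 3 members were called lower in mock cells at 0.3 µM, and DESeq2 had 2 with a negative interaction at 0.3 µM. Fitting only the groups compared gave 9 members lower in T-N1G cells under vehicle and 7 at 0.3 µM, 26 higher in mock cells at 0.3 µM, 1 lower in T-N1G cells at 0.3 µM and 4 with a negative interaction at 0.3 µM. With the replicate block 4 members were lower in T-N1G cells under vehicle, 5 at 0.3 µM (with Atp6v0d1 and Atp6v1f added), and 2 had a negative interaction at 0.3 µM (with Cd63 added, adjusted p = 0.044), and Ctsl was added to the negative ones at 1.0 µM (adjusted p = 0.041); where the numbers do not pair the libraries, this fit says only what the block does to the counts. The causes of these changes were not tested.

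Leaving out 1 library at a time, the members higher in T-N1G cells under vehicle numbered 2 to 8 and the lower ones 1 to 3, with a pump median of -0.14 to -0.052. At 0.3 µM they numbered 13 to 16 and 2 to 5. At 1.0 µM the lower ones numbered 7 to 16, with medians of 0.077 to 0.29 over the pump and -0.26 to -0.097 over the lysosomal genes. In mock cells at 0.3 µM 16 to 22 were up and 2 to 7 down, with medians of 0.14 to 0.21 and 0.20 to 0.27, and at 1.0 µM 6 to 10 were down, with medians of 0.071 to 0.17 and 0.23 to 0.34. In T-N1G cells at 1.0 µM the pump median was 0.50 to 0.63. Negative interactions at 0.3 µM numbered 0 to 2, and at 1.0 µM the medians were 0.14 to 0.38 and -0.22 to -0.042.

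The libraries of the 1.0 µM groups spread the most, which limits the precision there, and Ctsc in T-N1G cells rests on 2 to 12 fragments a library.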

Other observations

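Genes that bring enzymes to the lysosome moved in both directions at 1.0 µM MG132, as did the genes tested as a whole. Of 13 in this list, 5 rose and 4 fell in mock cells, and 6 rose and 4 fell in T-N1G cells. Of all genes tested, 32.4% rose and 37.4% fell in mock cells at that dose, and 37.5% rose and 38.9% fell in T-N1G cells, shares against which the counts of each list here are to be read. M6pr, a receptor for mannose 6-phosphate on newly made enzymes, had 121 ± 0.34 CPM (mean ± SD, n = 3) in mock vehicle and 175 ± 20 at 1.0 µM, against 116 ± 4.4 and 342 ± 79 CPM with T-N1G, with an interaction of 1.02 ± 0.16 (adjusted p = 5.4e-05) (± SE, edgeR). The other such receptor, Igf2r, rose by 1.18 ± 0.11 (adjusted p = 2.3e-08) in mock and 0.95 ± 0.11 (adjusted p = 2.2e-07) in T-N1G cells. Gnptab, of the enzyme that makes the mannose 6-phosphate tag, had log2 fold changes of -0.72 ± 0.12 (adjusted p = 3.0e-05) and -1.37 ± 0.12 (adjusted p = 7.8e-09), and the sorting receptor Sort1 of -1.48 ± 0.13 (adjusted p = 1.3e-08) and -1.47 ± 0.13 (adjusted p = 5.8e-09).

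Of 14 other lysosomal membrane proteins, 5 rose and 5 fell in mock cells and 6 rose and 4 fell in T-N1G cells at that dose. Abca2, a lipid transporter, had 56.2 ± 2.1 CPM in mock vehicle, 29.3 ± 2.7 at 0.3 µM and 19.1 ± 4.0 at 1.0 µM, but 65.4 ± 2.5, 106 ± 16 and 113 ± 21 CPM with T-N1G. Its log2 fold change at 1.0 µM was -1.55 ± 0.15 (adjusted p = 6.1e-08) in mock and 0.79 ± 0.14 (adjusted p = 5.2e-05) in T-N1G cells, and the interaction was 2.35 ± 0.20 (adjusted p = 7.5e-08). Of 17 tested regulators around mTORC1, 5 rose and 7 fell in mock cells, and 7 of each in T-N1G cells. The Ragulator genes Lamtor4 and Lamtor2 fell in both lines, with log2 fold changes of -1.36 ± 0.09 (adjusted p = 3.5e-10) and -1.60 ± 0.09 (adjusted p = 1.7e-11) for Lamtor4 and -1.24 ± 0.14 (adjusted p = 5.1e-07) and -0.79 ± 0.14 (adjusted p = 6.0e-05) for Lamtor2. Rragd, a Rag GTPase, rose by 1.55 ± 0.14 (adjusted p = 3.3e-08) and 1.03 ± 0.17 (adjusted p = 1.8e-05), and Fnip1, a partner of folliculin, by 1.34 ± 0.12 (adjusted p = 1.8e-08) and 1.04 ± 0.12 (adjusted p = 2.5e-07). Rptor, a subunit of mTORC1, rose by 0.89 ± 0.09 (adjusted p = 7.5e-08) in T-N1G cells, with an interaction of 1.09 ± 0.13 (adjusted p = 2.7e-06).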
